A study of Mus musculus with 6 samples.

Results

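Th1, Th2 and effector lineage factors are 8 transcription factor genes that steer CD4 T cells away from or beyond a given helper fate: Tbx21, Eomes, Hlx, Gata3, Bhlhe40, Id2, Prdm1 and Zeb2. They were found by gene name among the 33300 features of a deposited expression table, and all 8 were present. The cells were naive CD4 T cells of age-matched female mice, held on plates coated with antibodies to CD3 and CD28 for 5 days under conditions that drive the Th17 state. The medium held antibodies to IL-4 and to IFNγ, each at 10 μg/mL, with TGFβ1 at 1 ng/mL, IL-23 at 10 ng/mL, IL-6 at 50 ng/mL and IL-1β at 10 ng/mL. Libraries from 3 control mice, whose genotype is labelled WT, were compared with libraries from 3 mice labelled SLE1.2.3, and nothing but genotype separates the groups in the labels. Mice of that name develop a lupus-like disease because of intervals on chromosomes 1, 4 and 7, known as Sle1, Sle2 and Sle3. The labels used here give neither the control strain nor the ages.

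Helper T cell fates are set by transcription factors that promote one programme and repress the others. T-bet, the product of Tbx21, drives Th1 cells and their interferon-γ, and the homeobox factor Hlx acts with it. GATA3 drives Th2 cells. Blimp-1, the product of Prdm1, and ZEB2 are repressors linked to terminally differentiated effector cells. ID2 blocks the DNA binding of E proteins, and BHLHE40 is a factor of activated helper T cells linked to GM-CSF production and restraint of IL-10. Some Th17 cells are known to gain T-bet and make interferon-γ beside IL-17.

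Values are FPKM, fragments scaled to the length of the feature and to the assigned reads of the library, so levels can be set side by side between genes as far as that length fits the transcripts made. The deposited length equals the joined exons of all GENCODE M21 transcripts for 7 of the members; for Zeb2 these come to 19942 bases. The control libraries held between 29734388 and 56794852 assigned reads and the SLE1.2.3 libraries between 61693813 and 83455378, so low levels were measured less precisely in control cells. The first principal component, with 78.4% of the variance, placed the controls between -29.5 and -28.6 and SLE1.2.3 mice 1, 2 and 3 at 4.25, 33.9 and 49.0. SLE1.2.3 mouse 1 thus lay nearer to the controls than mice 2 and 3 did. Of 11378 genes tested with limma, 1098 were called higher and 635 lower for SLE1.2.3 at an adjusted p of 0.05. That split was 1006 and 349 after rescaling to a common FPKM sum, and 969 and 893 after quantile normalization. Features of ribosomal RNA held 2.37% of control mouse 3 and between 0.187% and 0.281% of the other libraries.

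Tbx21, Hlx, Prdm1, Zeb2 and Id2 rose in SLE1.2.3 cells, Gata3 and Bhlhe40 did not pass the test, and 0 members fell in limma, at an unadjusted p under 0.05 or in limma voom on reads. Eomes stayed under the filter, a mean of 1 FPKM over the 6 libraries, and was not tested. Over all genes tested, 9.65% were called higher, beside 5 of the 7 members tested. Tbx21, Hlx, Prdm1 and Zeb2 had control means under 1 FPKM and owed their place above the filter to the SLE1.2.3 mice, which makes the count of 5 no support for a change of the members as a set. Without any filter, 3 of the 8 members were called higher, namely Hlx, Id2 and Prdm1, where 1.62% of 30034 features were. The groups did not overlap for 6 of the 8 members, all of them higher in SLE1.2.3 cells, while 41.5% of the genes tested had such a gap in either direction and 23.9% with SLE1.2.3 higher. In these bulk libraries, more cells of a type and more RNA per cell cannot be told apart.

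**Figure D1:**
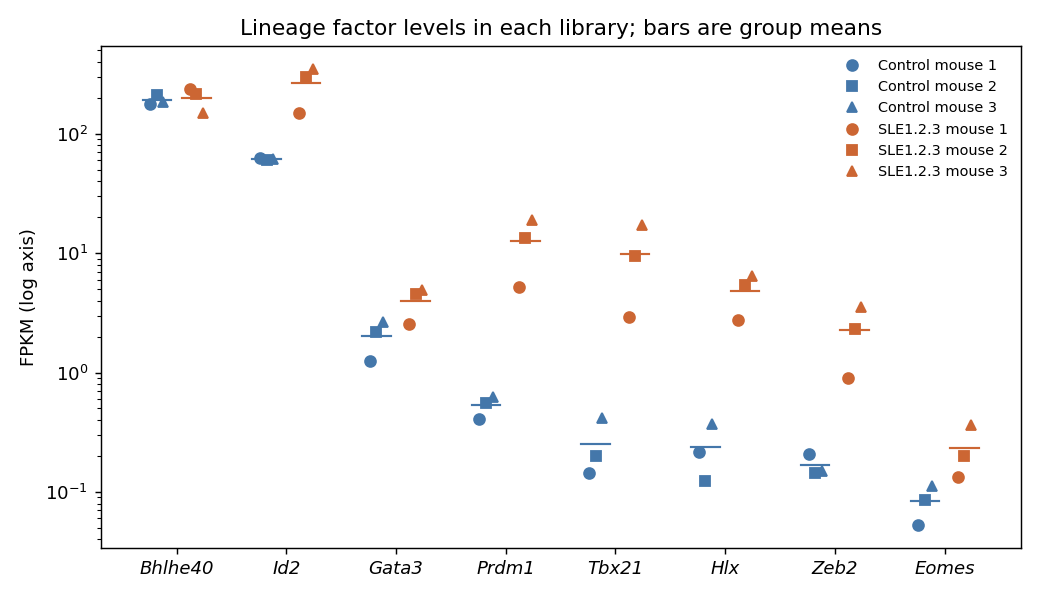
Level of each lineage factor in FPKM on a log axis, with 1 point per library and a bar at each group mean (n = 3 mice per group). The 3 SLE1.2.3 points lie above the 3 control points for Id2, Prdm1, Tbx21, Hlx, Zeb2 and Eomes, and the groups overlap for Bhlhe40 and Gata3.

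Tbx21 (ENSMUSG00000001444.2, chromosome 11, 97098071 to 97115331, mm10) encodes the Th1 master regulator. Its level was 0.144, 0.198 and 0.419 FPKM in control mice 1, 2 and 3, which rests on 18, 28 and 31 reads, and 2.90, 9.41 and 17.2 FPKM in SLE1.2.3 mice 1, 2 and 3, from 602, 1444 and 3214 reads. The lowest SLE1.2.3 library was 6.92 times the highest control library, and SLE1.2.3 mouse 3 was 5.93 times mouse 1, the widest spread of any member within that group. The fitted log2 change of FPKM + 1 was 2.86 ± 0.53 (SE, adjusted p = 0.022). Tbx21 did not pass with voom on recovered reads (adjusted p = 0.068) or without the filter (adjusted p = 0.064). On the scale of FPKM + 1 a low control level is pulled towards 1 unit, and with a pseudocount of 0.1 the log2 change was 4.56. Tbx21 moved from below nearly every tested gene in control cells, at the 0.949 percentile of the tested genes' control means, to the 56.5 percentile of their SLE1.2.3 means.

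Hlx (ENSMUSG00000039377.7, chromosome 1, 184727140 to 184732619, mm10) encodes a homeobox factor that cooperates with T-bet at the interferon-γ gene. It was at 0.218, 0.124 and 0.369 FPKM in control mice 1, 2 and 3 and at 2.74, 5.36 and 6.46 FPKM in SLE1.2.3 mice 1, 2 and 3. Every SLE1.2.3 library was therefore at least 7.43 times the highest control. The log2 change of FPKM + 1 was 2.19 ± 0.26 (SE, adjusted p = 0.0078). Hlx was the single member to pass in all 6 fits that left out 1 library, with the adjusted p between 0.00011 and 0.047. It is also the one member on chromosome 1, 4 or 7, which hold the Sle intervals. Whether it lies inside the interval was not analysed here.

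Eomes (ENSMUSG00000032446.14, chromosome 9, 118478212 to 118486132, mm10) encodes the T-box relative of T-bet found in natural killer and memory CD8 T cells. It was at 0.0530, 0.0850 and 0.113 FPKM in control mice 1, 2 and 3 and at 0.133, 0.199 and 0.365 FPKM in SLE1.2.3 mice 1, 2 and 3. The groups did not overlap, but the gap between the highest control and the lowest SLE1.2.3 library was a factor of only 1.18. These levels rest on 11, 20 and 14 reads in the controls and 46, 51 and 114 reads in SLE1.2.3 cells. In the fit without a filter its log2 change of FPKM + 1 was 0.18 ± 0.07 (SE, adjusted p = 0.24). An antisense transcript that overlaps the gene, Gm33460, reached 0.296 FPKM in control mouse 2 and 0.224 FPKM in SLE1.2.3 mouse 3. The strand setting of the counting is not given, so reads of both cannot be told apart at this level.

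Gata3 (ENSMUSG00000015619.10, chromosome 2, 9857078 to 9890034, mm10) encodes the Th2 master regulator. It was at 1.238, 2.17 and 2.63 FPKM in control mice 1, 2 and 3 and at 2.56, 4.56 and 4.87 FPKM in SLE1.2.3 mice 1, 2 and 3. SLE1.2.3 mouse 1 lay within the control range, so the groups overlapped, and mice 2 and 3 lay above it. The log2 change of FPKM + 1 was 0.72 ± 0.25 (SE) and did not pass (adjusted p = 0.099). It passed after rescaling to a common FPKM sum (adjusted p = 0.027) and without SLE1.2.3 mouse 1 (adjusted p = 0.015). The overlapping non-coding transcript Gm13256 stayed at or under 0.205 FPKM.

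Prdm1 (ENSMUSG00000038151.13, chromosome 10, 44437177 to 44528501, mm10) encodes Blimp-1, a repressor found in effector T cells and in antibody-secreting plasma cells. It was at 0.406, 0.555 and 0.627 FPKM in control mice 1, 2 and 3 and at 5.19, 13.5 and 19.0 FPKM in SLE1.2.3 mice 1, 2 and 3. The lowest SLE1.2.3 library was 8.28 times the highest control, the clearest separation among the members. The log2 change of FPKM + 1 was 2.99 ± 0.41 (SE, adjusted p = 0.01). With a pseudocount of 0.1 the log2 change was 4.16, below the 4.56 of Tbx21.

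Zeb2 (ENSMUSG00000026872.18, chromosome 2, 44983632 to 45117395, mm10) encodes an E-box repressor of terminal effector cells. It was at 0.209, 0.143 and 0.15 FPKM in control mice 1, 2 and 3 and at 0.893, 2.30 and 3.56 FPKM in SLE1.2.3 mice 1, 2 and 3. The groups did not overlap, and the log2 change of FPKM + 1 was 1.39 ± 0.31 (SE, adjusted p = 0.034). The authors' table gives Zeb2 a length of 20203 bases, against 5579 for Prdm1, the next longest member. The longest of its 29 annotated transcripts (GENCODE M21) has 9124 bases, and over that length, chosen after seeing the data, its mean would be 0.371 FPKM in control and 4.98 FPKM in SLE1.2.3 cells in place of 0.167 and 2.25 FPKM. In reads it held 213, 164 and 90 in the controls and 1506, 2862 and 5397 in SLE1.2.3 cells. With the pseudocount at 0.1 its log2 change was 2.95, and without the filter Zeb2 did not pass (adjusted p = 0.090). The antisense transcript Zeb2os was at or under 0.134 FPKM.

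Tbx21, Hlx, Prdm1 and Zeb2 rose from low control levels, and ZEB2 is known to bind the E-box CACCTG. The promoters of Tbx21, Prdm1 and Zeb2, but not Hlx, are shown here. Each is the 250 bases before the annotated start in RefSeq (GRCm38.p6, the same assembly as mm10), 5′ to 3′ on the gene's strand, with motif matches in capitals; for Prdm1 it lies inside the gene's annotated span, and for Zeb2 it is the most upstream of 4 starts in the table. RefSeq windows were found for 7 of the 8 members.
Tbx21, chr11:97115332-97115581, minus strand: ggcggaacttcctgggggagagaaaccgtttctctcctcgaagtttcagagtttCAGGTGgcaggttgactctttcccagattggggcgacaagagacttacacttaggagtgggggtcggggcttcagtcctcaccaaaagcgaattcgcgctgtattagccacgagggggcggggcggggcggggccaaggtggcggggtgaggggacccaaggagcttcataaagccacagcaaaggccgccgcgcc
Prdm1, chr10:44458749-44458998, minus strand: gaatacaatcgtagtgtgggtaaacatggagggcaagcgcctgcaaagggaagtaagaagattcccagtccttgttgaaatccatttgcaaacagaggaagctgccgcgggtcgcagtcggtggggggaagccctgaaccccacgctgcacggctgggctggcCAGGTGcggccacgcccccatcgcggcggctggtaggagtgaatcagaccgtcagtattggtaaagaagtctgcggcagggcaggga
Zeb2, chr2:45117443-45117692, minus strand: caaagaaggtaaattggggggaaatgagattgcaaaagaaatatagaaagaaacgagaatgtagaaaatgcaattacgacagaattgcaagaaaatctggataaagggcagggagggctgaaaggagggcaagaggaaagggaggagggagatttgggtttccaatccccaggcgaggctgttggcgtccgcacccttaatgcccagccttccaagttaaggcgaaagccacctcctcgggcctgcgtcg
Both strands were searched for CACCTG, for the E-box CACGTG that BHLHE40 binds, for GGTGTG from the T-box site, for AGATAA from the GATA site, for TTCNNNGAA from the STAT site and for GTGAAAG from the Blimp-1 site. Tbx21 and Prdm1 each had 1 match to CACCTG, read as CAGGTG on the strand shown, starting 196 and 87 bases before the start. They were the 2 of 10 member windows with that motif, which 17.2% of all 32851 promoter windows of this length hold. CACCTG and GGTGTG can share letters, where CAGGTG is followed by TG. The Zeb2 window shown held 0 of the 6 motifs. GGTGTG was found in 4 of the 10 member windows, namely that of Gata3 and the other 3 of Zeb2, and in 16.3% of all windows. A pair of these Zeb2 windows overlap and share their match, so the 4 windows hold 3 sites. TTCNNNGAA was found at 1 site, in that pair of Zeb2 windows, and in 7.02% of all windows. The E-box of BHLHE40 and the GATA and Blimp-1 letters were found in 0 member windows and in 6.02%, 9.99% and 3.57% of all windows. These matches describe letters in the reference sequence, not binding in these cells.

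Id2 (ENSMUSG00000020644.9, chromosome 12, 25093799 to 25097140, mm10) encodes the inhibitor of E proteins that effector and innate lymphocytes depend on. It was at 62.8, 60.7 and 60.9 FPKM in control mice 1, 2 and 3, a range of 1.04 times, and at 149, 296 and 350 FPKM in SLE1.2.3 mice 1, 2 and 3. Unlike the other members that rose, Id2 was already abundant in control cells, at the 93.4 percentile of the tested genes' control means. Its log2 change of FPKM + 1 was 2.00 ± 0.30 (SE, adjusted p = 0.014), and 2.02 with a pseudocount of 0.1.

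Bhlhe40 (ENSMUSG00000030103.11, chromosome 6, 108660629 to 108666925, mm10) was the most abundant member in control cells. It was at 178, 210 and 184 FPKM in control mice 1, 2 and 3 and at 238, 215 and 149 FPKM in SLE1.2.3 mice 1, 2 and 3. The SLE1.2.3 libraries lay on both sides of the controls. The log2 change of FPKM + 1 was 0.05 ± 0.18 (SE, adjusted p = 0.88), and its sign turned after quantile normalization and without control mouse 1 or SLE1.2.3 mouse 1 or 2.

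Calls of 4 members did not hold in every fit that left out 1 library. Tbx21 no longer passed without control mouse 1, 2 or 3 (adjusted p = 0.087, 0.090 and 0.080) or without SLE1.2.3 mouse 2 (0.096). Id2 did not pass in those 4 fits either (0.064, 0.068, 0.065 and 0.071), and Prdm1 missed the threshold narrowly in each (0.056, 0.057, 0.054 and 0.059). Zeb2 did not pass without control mouse 1, 2 or 3 (0.11, 0.12 and 0.11) and fell under the filter without SLE1.2.3 mouse 2 or 3. The number of members called higher was thus 1, Hlx, without any 1 of those 4 libraries, 6 without SLE1.2.3 mouse 1 and 4 without SLE1.2.3 mouse 3. Calls over all genes moved too, with between 11321 and 11404 genes tested in these fits. The 1098 genes called higher became 214, 189 and 184 without control mice 1, 2 and 3. They became 2122, 142 and 732 without SLE1.2.3 mice 1, 2 and 3. The directions of Tbx21, Hlx, Prdm1, Zeb2 and Id2 did not turn in any of these fits. With SLE1.2.3 mouse 1 alone against the controls, 4 members reached the filter, and Id2 and Prdm1 passed; the lone library is assumed there to vary like the controls. Tbx21, Hlx and Zeb2 passed in that comparison when the genes of the full fit were tested, a choice made after seeing the data in which mice 2 and 3 had brought these 3 genes over the filter.

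**Figure D2:**
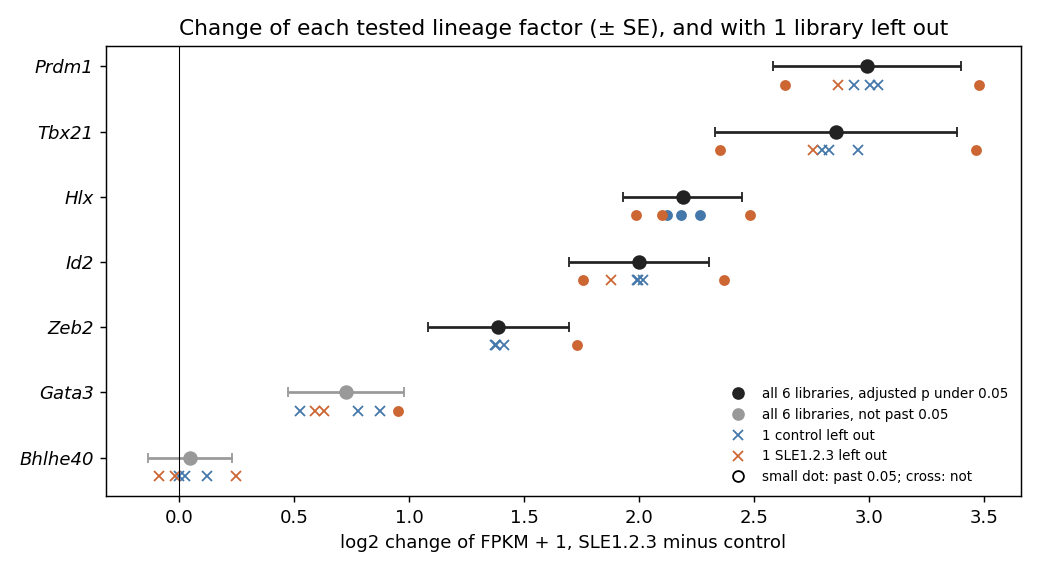
Log2 change of FPKM + 1, SLE1.2.3 minus control, for the 7 tested members, with its SE (large points) and with each library left out in turn (small marks, dots where the adjusted p was under 0.05). The 6 small marks of Hlx are all dots, and those of Prdm1, Tbx21 and Id2 include 4 crosses each.

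The SLE1.2.3 libraries differed among themselves in a shared order. Mouse 1 was lowest and mouse 3 highest for 7 of the 8 members, and Bhlhe40 had the opposite order. Against the control mean, SLE1.2.3 mice 1, 2 and 3 were at 11.4, 37.1 and 67.8 times for Tbx21. The same folds were 9.80, 25.4 and 35.9 for Prdm1 and 11.6, 22.6 and 27.3 for Hlx. They were smaller for Zeb2, at 5.34, 13.7 and 21.3, and for Id2, at 2.42, 4.82 and 5.69. The folds of Tbx21 and Hlx rest on at most 31 reads in any control library and are less certain than that of Id2. Mouse 1, which lay nearest to the controls in the whole profile, was thus already outside the control range for each member that rose.

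**Figure D3:**
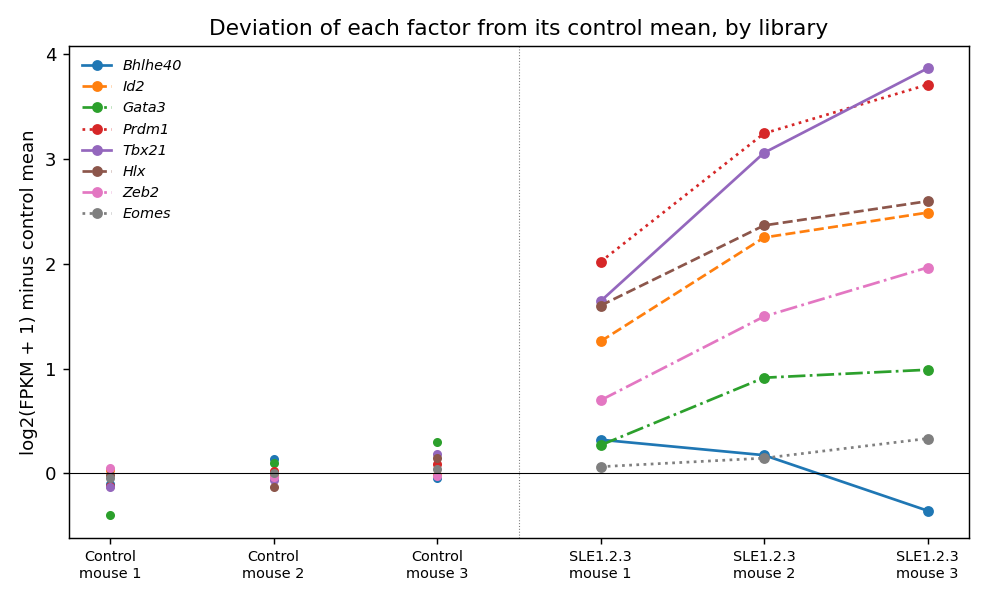
Deviation of log2(FPKM + 1) from the gene's control mean in each library, with lines that join the SLE1.2.3 values of 1 gene and imply no order among mice. Tbx21 and Prdm1 lie highest in SLE1.2.3 mice 2 and 3, Hlx and Id2 lie close together below them, and Bhlhe40 crosses the control mean.

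Summed markers of γδ T cells, CD8 T cells, natural killer cells and B or plasma cells had the same order, lowest in SLE1.2.3 mouse 1 and highest in mouse 3. The summed level of 10 γδ and innate-like T cell genes was between 43.0 and 51.0 FPKM in the controls and 133, 303 and 625 FPKM in SLE1.2.3 mice 1, 2 and 3, with 8 of the 10 called higher in limma and 1 in limma voom on reads. Of the 10, 9 had control means under 1 FPKM. Beside the limma counts of this and the other marker lists, 9.65% of all genes tested were called higher and 5.58% lower. The list includes Maf, which CD4 T cells express as well, which did not pass and which held most of the control sums. Without Maf the other 9 genes summed to 3.10, 3.32 and 3.87 FPKM in control mice 1, 2 and 3 and to 59.0, 271 and 601 FPKM in SLE1.2.3 mice 1, 2 and 3. Of 2 CD8 genes, Cd8a and Cd8b1, the sum was between 4.65 and 5.60 FPKM in the controls and 7.69, 49.9 and 110.2 FPKM in SLE1.2.3 mice 1, 2 and 3, and 0 of them passed in limma or voom (both had an unadjusted p under 0.05). Cd4 itself was at 246, 264 and 253 FPKM in the controls and at 257, 144 and 71.6 FPKM in SLE1.2.3 mice 1, 2 and 3 (adjusted p = 0.20). The 8 CD4 T cell genes summed to between 2113 and 2249 FPKM in the controls and between 1478 and 2348 FPKM in SLE1.2.3 cells, and 0 of 8 passed in limma or voom (1 was higher at an unadjusted p under 0.05). The part of these markers in the change of the lineage factors was not tested. Of the natural killer cell genes, Ncr1, Klra4 and Klra8 were at or under 0.0320 FPKM in every library, the latter pair listed at 0 in all controls. Klrb1c was at 0.02, 0 and 0.011 FPKM in the controls and at 0.113, 0.126 and 0.234 FPKM in SLE1.2.3 mice 1, 2 and 3, without overlap. Tyrobp and Fcgr3, shared with myeloid cells, reached 1.19 and 0.751 FPKM, with overlapping groups. The 8 natural killer genes summed to between 6.82 and 8.69 FPKM in the controls and between 24.4 and 45.9 FPKM in SLE1.2.3 cells. Klrd1 and Klrk1, both also found in activated T cells, were the 2 tested genes of that list, and both rose.

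Plasma cells are another known site of Prdm1. Igkc, the immunoglobulin light chain gene, was at 0.971, 0.695 and 1.64 FPKM in control mice 1, 2 and 3 and at 56.4, 86.2 and 152 FPKM in SLE1.2.3 mice 1, 2 and 3. Jchain, which joins secreted antibodies, was between 0.0420 and 0.0710 FPKM in the controls and at 1.91, 3.34 and 5.09 FPKM in SLE1.2.3 cells. The B cell genes Ms4a1 and Pax5 were at or under 0.0430 and 0.273 FPKM in every library. The 8 B and plasma cell genes summed to between 3.56 and 5.58 FPKM in the controls and between 64.2 and 161 FPKM in SLE1.2.3 cells, with 3 of 3 tested genes higher in limma and 2 in voom. Mast cell, basophil and ILC2 genes were read as a single list. Their sum was between 0.912 and 2.02 FPKM in the controls and 5.05, 4.51 and 21.2 FPKM in SLE1.2.3 mice 1, 2 and 3. Of 3 tested genes, 0 passed the threshold in limma or voom and 1 was higher at an unadjusted p under 0.05. In SLE1.2.3 mouse 3, Cpa3 and Mcpt8 were at 6.62 and 6.19 FPKM. Il1rl1 and Il17rb were at or under 0.599 and 0.517 FPKM in every library. The 8 myeloid and dendritic cell genes summed to between 7.34 and 9.03 FPKM in the controls and between 7.91 and 11.2 FPKM in SLE1.2.3 cells, with 1 of 3 tested genes higher and 1 lower. The part of these markers in the levels of Prdm1 and Gata3 was not tested. The 6 Th17 genes summed to between 847 and 1563 FPKM in the controls and between 2656 and 3527 FPKM in SLE1.2.3 cells, with 5 of 6 higher. Il17a and Il17f held most of these sums, and Il17f did not pass (adjusted p = 0.43 in limma). In the controls Il22 was between 1.98 and 5.39 FPKM and Ccr6 between 5.14 and 6.22 FPKM.

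The order of the members' levels differed between the groups. In control cells Bhlhe40 was above Id2, Id2 above Gata3 and Gata3 above Prdm1 in each library, with ranges that did not overlap. The ranges of Prdm1 and Tbx21, of Tbx21 and Hlx and of Hlx and Zeb2 overlapped in turn, and Eomes lay below all of them. In SLE1.2.3 cells Id2 was above Bhlhe40 in 2 of 3 libraries, with overlapping ranges. At the deposited lengths, Prdm1, Tbx21, Hlx, Gata3 and Zeb2 followed in this order in every library, although each range overlapped the next. Over the longest transcripts, Gata3 was above Tbx21 in SLE1.2.3 mouse 1 (3.17 against 2.90 FPKM). It was then also above Hlx in mice 1 and 2 (3.17 and 5.65 against 2.74 and 5.36 FPKM), and below Hlx in mouse 3. The place of Zeb2 rests on its length: with each member at its longest transcript, its SLE1.2.3 mean of 4.98 FPKM was beside 4.95 for Gata3 and 4.85 for Hlx, and its control mean of 0.371 FPKM was above 0.254 for Tbx21 and 0.237 for Hlx. Gata3 was in the third place in control and in the sixth in SLE1.2.3 cells by the mean, with either length.

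Within-library ratios compare a member with a rival or relative in the same RNA, each as the log2 of (FPKM + 1) ratios. Of the 6 pairs described, 5 had groups that did not overlap. With 3 libraries against 3, the exact two-sided permutation test cannot give a p below 0.1, and each of these 5 pairs reached that value (adjusted p = 0.13 over the 8 pairs tested). At the deposited lengths, Tbx21 was below Gata3 in all 3 control libraries and above it in all 3 SLE1.2.3 libraries. Their log2 ratio was then -0.97, -1.41 and -1.35 in control mice 1, 2 and 3 and 0.13, 0.90 and 1.63 in SLE1.2.3 mice 1, 2 and 3. The place of mouse 1 depends on the length. Over the longest transcripts, Gata3 was above Tbx21 in SLE1.2.3 mouse 1, at 3.17 against 2.90 FPKM, and below it in mice 2 and 3.

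Id2 and Id3 are related inhibitors of E proteins that mark effector and memory-type cells respectively. Id3 was at 17.9, 21.2 and 19.1 FPKM in control mice 1, 2 and 3 and at 12.2, 5.25 and 2.41 FPKM in SLE1.2.3 mice 1, 2 and 3 (adjusted p = 0.058 in limma). The groups did not overlap, with Id3 lowest in the library where Id2 was highest. The Id2 to Id3 log2 ratio was 1.62 ± 0.14 for control and 5.25 ± 1.61 for SLE1.2.3 libraries (n = 3 per group, SD), the widest shift of the 6 pairs. Blimp-1 and BCL6 repress each other's genes. Bcl6 rose as well, from 3.85 ± 0.476 to 7.58 ± 1.01 FPKM (n = 3 per group, SD). The Prdm1 to Bcl6 log2 ratio was between -1.71 and -1.61 in the controls and at -0.59, 0.68 and 1.43 in SLE1.2.3 mice 1, 2 and 3, so that Prdm1 was above Bcl6 in 2 of 3 SLE1.2.3 libraries and in 0 of 3 controls. Zeb1, the relative of Zeb2, was at 6.17 ± 0.0949 and 6.41 ± 0.295 FPKM (n = 3 per group, SD; adjusted p = 0.62 in limma) and stayed above Zeb2 in every library. Bhlhe41, the relative of Bhlhe40, was at or under 0.0550 FPKM in every library, and that ratio did not separate the groups (exact permutation p = 0.8). The Eomes to Tbx21 log2 ratio was between -0.35 and -0.12 in the controls and at -1.78, -3.12 and -3.74 in SLE1.2.3 mice 1, 2 and 3. Both genes were under 1 FPKM in the controls, where adding 1 pulls the ratio towards 0. Without that addition, Eomes was 0.368, 0.429 and 0.270 times Tbx21 in control mice 1, 2 and 3. The same ratios were 0.0459, 0.0212 and 0.0212 in SLE1.2.3 mice 1, 2 and 3.

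**Figure D4:**
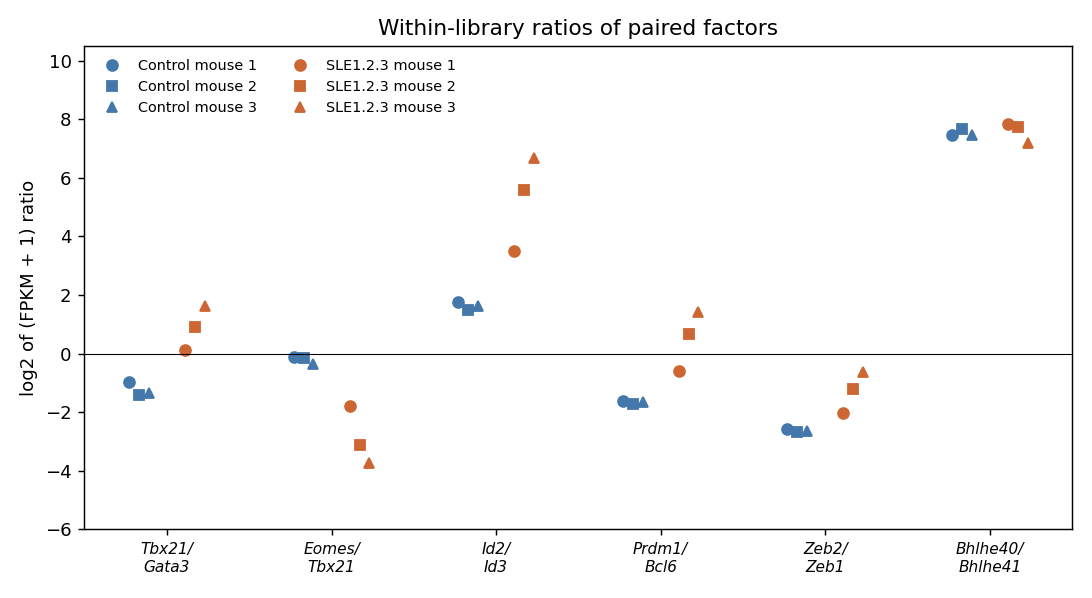
Log2 ratio of (FPKM + 1) within each library for 6 pairs of factors, with 1 point per library. The groups lie apart for 5 pairs and overlap for Bhlhe40 to Bhlhe41. At the deposited lengths used here, the Tbx21 to Gata3 ratio is below 0 in all controls and above 0 in all SLE1.2.3 libraries.

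The targets and partners of these factors were read from lists of 20 genes each. Beside the limma counts of these 4 lists, 9.65% of all genes tested were called higher and 5.58% lower. Of 17 tested genes of the Th1 programme, 11 rose, 0 fell in limma, voom or at an unadjusted p under 0.05, and 6 missed the threshold, with a median log2 change of 2.11 where that of all tested genes was 0.01. Cxcr3, a chemokine receptor gene that T-bet activates, was between 0.333 and 0.641 FPKM in the controls and at 3.00, 2.78 and 3.58 FPKM in SLE1.2.3 mice 1, 2 and 3 (adjusted p = 0.0033). It and 1 other of the 11 had control means under 1 FPKM. The chemokine receptor gene Cxcr6 and the chemokine gene Ccl5 had log2 changes of 5.36 and 2.51. Ifng, chosen after its values were seen, reached 22.6, 189 and 422 FPKM in SLE1.2.3 mice 1, 2 and 3, in a culture that held an antibody to interferon-γ, and between 1.02 and 1.61 FPKM in the controls. Stat4 and Runx3, which act beside T-bet, had log2 changes of 0.03 and 0.10 and did not pass. The count of 11 was 4, 2 and 4 without control mice 1, 2 and 3 and 4 without SLE1.2.3 mouse 2.

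The Th2 programme had 13 tested genes, of which 1 rose, 1 fell and 11 missed the threshold, with a median log2 change of -0.13. Il13, a Th2 cytokine gene, was at 0.742, 1.05 and 1.03 FPKM in control mice 1, 2 and 3 and at 18.5, 11.3 and 25.1 FPKM in SLE1.2.3 mice 1, 2 and 3 (adjusted p = 0.0027); its control mean was under 1 FPKM. Il24 fell by 2.42 on the log2 scale (adjusted p = 0.044). Il4, the cytokine that defines Th2 cells and that the culture blocked, was between 1.62 and 2.56 FPKM in the controls and between 1.05 and 2.7 FPKM in SLE1.2.3 cells (adjusted p = 0.58). Il5 was at 0.026, 0.011 and 0.044 FPKM in control mice 1, 2 and 3 and at 0.265, 0.169 and 0.139 FPKM in SLE1.2.3 mice 1, 2 and 3, without overlap. At these low levels it was not tested. Of the other untested genes of the list, Areg, Il1rl1, Il17rb and Epas1 were higher in SLE1.2.3 cells without overlap. Il9 was lower without overlap, and the groups of Ptgdr2 overlapped. The chemokine receptor genes Ccr4 and Ccr8 had log2 changes of -1.19 and -0.60 that did not pass (adjusted p = 0.056 and 0.055), although the groups did not overlap; with Il24 they were the 3 listed genes lower at an unadjusted p under 0.05. Il24 did not pass without control mouse 1, 2 or 3 or SLE1.2.3 mouse 2 or 3, where 0 genes of the list fell; without SLE1.2.3 mouse 1, 2 rose and 5 fell.

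Of 15 tested genes of the terminal effector programme, 5 rose, 2 fell and 8 missed the threshold, with a median log2 change of -0.07; Il10 and Prf1 had control means under 1 FPKM. Il10, which Blimp-1 supports in T cells, had a log2 change of 1.72 and the granzyme gene Gzma one of 3.90, both past the threshold. Il2, a target that Blimp-1 represses, fell by 1.12 on the log2 scale. The other genes that rose were Gzmb, Prf1 and Bcl6; Bcl6 belongs to follicular helper cells rather than to terminal effectors. Klrg1, a marker gene of ZEB2-dependent effector cells, was not tested. It was listed at 0 in all controls and at 0.127, 0.493 and 0.659 FPKM in SLE1.2.3 mice 1, 2 and 3. Of the other untested genes of the list, Cx3cr1, S1pr5 and Cxcr5 had overlapping groups. Cx3cr1 and S1pr5 were at or under 0.360 and 0.0390 FPKM in every library. Gzmk was higher in every SLE1.2.3 library than in any control. The counts were 1 that rose and 0 that fell without control mouse 1, 2 or 3 or SLE1.2.3 mouse 2, 5 and 6 when SLE1.2.3 mouse 1 was left out, and 5 and 1 when mouse 3 was.

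Among 15 tested partners and antagonists, 6 rose, 0 fell in limma or voom and 9 missed the threshold, with a median log2 change of 0.10. Rora, a nuclear receptor gene of Th17 cells, rose by 1.23 on the log2 scale, the factor genes Hopx and Tox2 by 1.2 and 1.28, and Bcl6 by 0.82. Zfpm1, which encodes a cofactor of GATA proteins, rose by 0.67. The E protein genes Tcf3, Tcf12 and Tcf4, whose products ID2 binds, had log2 changes of -0.17, 0.01 and -0.41 and did not pass. The groups did not overlap for Tcf4 (adjusted p = 0.10 in limma) and overlapped for Tcf3 and Tcf12. The count of 6 was 2 without control mouse 1, 2 or 3 or SLE1.2.3 mouse 2, and 4 partners fell without SLE1.2.3 mouse 1. At an unadjusted p under 0.05, 2 of the 15, Id3 and Tcf4, were lower.

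**Figure D5:**
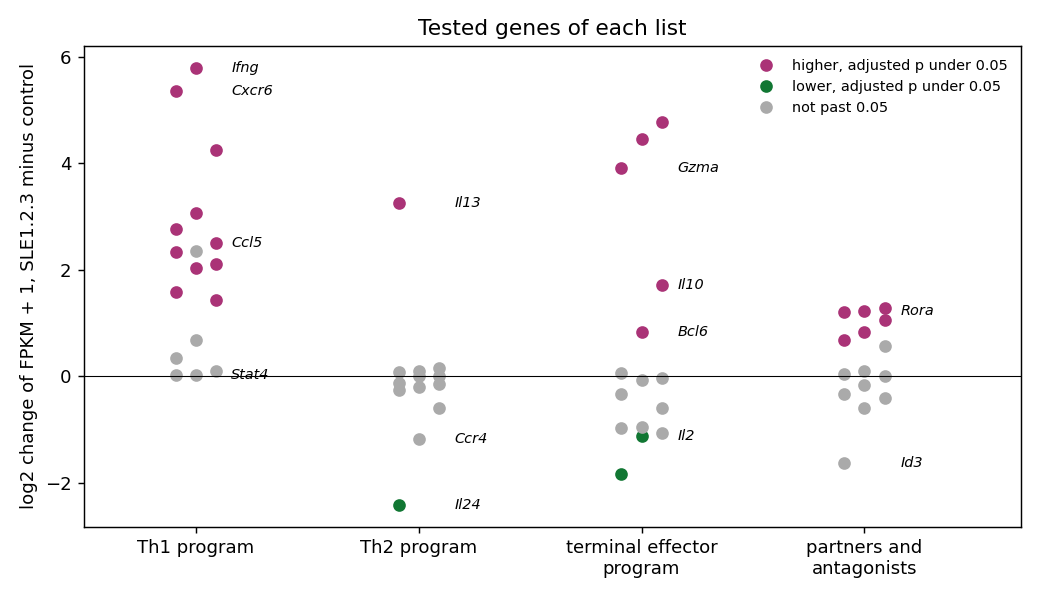
Log2 change of FPKM + 1, SLE1.2.3 minus control, of each tested gene in the 4 lists, coloured by call. Of the Th1 genes, 11 are marked higher, while Il13 and Il24 are the Th2 genes past the threshold, in opposite directions.

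Among 10065 other tested genes with names, the profiles most like each member were those with the smallest root-mean-square difference of log2(FPKM + 1), taken from the control mean, over the 6 libraries. For Tbx21 these were Havcr2, which encodes the inhibitory receptor TIM-3, at 0.11, the interleukin-1 receptor gene Il1r1 at 0.17 and Prdm1 at 0.19. For Prdm1 they were the immunoglobulin constant gene Ighg1 at 0.12, the chemokine receptor gene Ccr2 at 0.17 and Il1r1 at 0.17, with Tbx21 in the fourth place. For Hlx they were Zbtb16, the factor gene of innate-like T cells, at 0.11, the immunoglobulin constant gene Ighg2b at 0.12 and Phlda1 at 0.12. Among the members, Id2 came closest to Hlx, at 0.18, and Tbx21 and Prdm1 were the next closest pair of the 5 that rose, at 0.19. For Id2 itself the nearest were the immunoglobulin segment Ighv1-53, Iglon5 and the interferon-inducible GTPase gene Irgm1, at 0.11, 0.11 and 0.12. For Zeb2 they were Wls at 0.04, Sla2 at 0.06 and Abhd15 at 0.07. The measure rests on 6 libraries that share their genotype contrast, and is a description with no test.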

How the data were processed

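The 6 libraries, 1 per mouse, were made from polyadenylated RNA by the SMARTER method, as the labels' protocols say. The aligner STAR 2.7.3a, the trimmer cutadapt 2.10, featureCounts 2.0.0, FastQC 0.11.9, the mm10 build and DESeq2 1.24.0 appear in the submitters' processing notes, and how each was set is not stated. Neither the strand setting nor the annotation is given in the sources used here. The authors deposited FPKM values, which multiplied by length sum to the same total in each library. Reads behind each value were recovered from the steps of low values; 100.0% of those under 30 reads were whole within 0.15 of a read in each library.

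Genes whose mean reached 1 FPKM were tested with limma 3.58.1 (R 4.3.3) on log2(FPKM + 1), with an empirical Bayes mean-variance trend, genotype as the only term and Benjamini-Hochberg adjustment over all 11378 genes at 0.05. The scale understates changes of low genes. P-values of the fit reflect how these 3 mice per group varied, with each gene's variance drawn towards the trend over all genes tested. They hold nothing on variation beyond these mice. Ratios of 8 pairs were tested by exact permutation; 2 of them and some listed genes that the rule below names are not reported here. The fit was checked on simulated counts that varied to the same degree for all genes and in both groups. That check cannot show how the fit does under the wider spread among the SLE1.2.3 libraries. The members and lists were chosen with earlier results of these data known. Named were the members, their pair partners, per list up to 4 called genes with the smallest adjusted p (or 2 where none passed), the 3 closest profiles of members changed by at least 1, and defining markers. Ifng, Stat4, Runx3, Ccr4, Ccr8, Tcf4, Il4, Il5, Tox2, Zfpm1, Tcf3, Tcf12, Gzmb, Prf1, Il2 and Klrg1 were chosen after their values were seen. So were Cx3cr1, S1pr5, Cxcr5, Gzmk, Areg, Il1rl1, Il17rb, Epas1, Il9 and Ptgdr2.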

Additional observations from a re-analysis of the deposited data

How the results depend on the processing

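Log2 changes of the members that rose kept their direction under every alternative run that tested them. The count of 1733 genes was 798 with no filter, 1129 with a mean of at least 5 FPKM, 940 with the replicate block, 659 without SLE1.2.3 mice 2 and 3, and 665 in that fit with the full set of genes (chosen after seeing the data); it was between 206 and 3705 with 1 library left out. The 5 members called higher became 3 with no filter, 3 at 5 FPKM, 2 without SLE1.2.3 mice 2 and 3, and between 1 and 6 with 1 library left out. Tbx21 was lost with no filter (adjusted p = 0.064) and with limma voom on recovered reads (adjusted p = 0.068), and Zeb2 with no filter (adjusted p = 0.090). The 11 Th1 genes called higher became 6 with no filter and 7 with voom, and lay between 2 and 14 with 1 library left out. For the Th2 list, 3 rose without SLE1.2.3 mice 2 and 3 in both versions; 0 fell there, with a pseudocount of 0.1, with no filter and with voom, and 2 fell with a common FPKM sum or quantiles; 1 library left out gave 1 to 2 higher and 0 to 5 lower. For the effector list, 3 rose and 1 fell with no filter, 1 fell at 5 FPKM and without SLE1.2.3 mice 2 and 3 in both versions, and 1 library left out gave 1 to 5 higher and 0 to 6 lower. Of partners, 1 fell with a common FPKM sum and without SLE1.2.3 mice 2 and 3, and 1 library left out gave 2 to 7 higher and 0 to 4 lower. The sign of the Bhlhe40 change, 0.05 in all libraries, turned to -0.0033 with quantiles, -0.00090 without control mouse 1, and -0.090 and -0.017 without SLE1.2.3 mice 1 and 2, within a range of -0.09 to 0.25 with 1 library left out; the Bhlhe40 to Bhlhe41 ratio difference of 0.06 was between -0.065 and 0.27. The other 5 ratios described kept their sign. The cause of these shifts was not tested, beyond the fewer libraries or genes in those fits.

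The labels number mice 1 to 3 in both groups without saying that a number is shared; deviations of same-numbered mice correlated at -0.0040, 0.10 and 0.091 across genes, and not each library was closest to its own number. With the mouse number as a replicate block, Gata3 passed (adjusted p = 0.025) and Zeb2 did not (adjusted p = 0.058), and the count of members called higher stayed at 5. Array weights could not be fitted: the estimate stopped before converging, with a weight of 68.6 on SLE1.2.3 mouse 2. Depth limits Tbx21, Hlx and Eomes most, with at most 31 reads per control library.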
